A study of Mus musculus with 6 samples.

Results

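The myogenic regulatory and Id factors are the transcription factors that commit a cell to skeletal muscle and the small proteins that hold them back. The 10 genes examined here are the myogenic bHLH factors Myod1, Myf5, Myog and Myf6, the Mef2 factors Mef2a, Mef2c and Mef2d, and the inhibitors Id1, Id2 and Id3. They were chosen by symbol, out of 12393 genes represented on the array by a probe set with a single gene symbol, and 21 probe sets measured them. A probe set is a group of short probes read together as 1 transcript signal, and several may report on the same gene.

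The series measured transcripts in C2C12 myotubes with and without palmitate. C2C12 is a mouse myoblast cell line, and when serum is lowered its cells join into multinucleated myotubes. All 6 samples had grown in 20% fetal bovine serum and then differentiated in 2% horse serum for 5 days. For the next 16 h, 3 samples received 500 µM palmitate, a saturated fatty acid carried on BSA, and 3 received 1% BSA (bovine serum albumin) alone. Nothing in the labels tells whether replicates came from separate cultures, so the p-values rest on variation among these 6 samples alone, and that variation may be technical. Each sample was read on 1 array, and this number of arrays limits the precision.

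Myogenic bHLH factors bind the E-box in DNA as heterodimers with the ubiquitous E proteins. MyoD and Myf5 act early, in the proliferating myoblast, and myogenin (Myog) and Mrf4 (Myf6) act later, in differentiation. Mef2 proteins have no E-box activity of their own. They bind an AT-rich site and cooperate with the bHLH factors at muscle promoters. Id proteins have the helix-loop-helix but lack the basic region that touches DNA, so they sequester E proteins in inactive dimers. Id transcription is a classical response to bone morphogenetic proteins (BMPs).

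A probe set was called where limma, a linear model fitted across all probe sets, gave a Benjamini-Hochberg adjusted p under 0.05. With palmitate, Myod1 fell 2.51-fold while Myog was at almost the same signal in both groups. One or more probe sets of Mef2c, Id2 and Id3 fell by 1.56-fold to 1.77-fold, and no probe set of these 10 genes was called higher. Of the 21 probe sets, 18 were bright enough to be tested, and 5 of these (27.8%) were called, all 5 lower with palmitate. Across the array 19.2% of 13575 probe sets were called in either direction and 10.6% were called lower. The median log2 fold change, palmitate over BSA, was -0.27 over the 18 and -0.0083 over all probe sets tested. The groups did not overlap for 7 of the 18 (38.9%), which is close to the 37.2% of all probe sets.

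Signals on the arrays correlated at 0.943 to 0.959 within a group and at 0.883 to 0.910 between groups. All 6 carried the same average signal, so a shift of most transcripts in 1 direction cannot be seen. Spiked hybridisation controls were brighter with palmitate by 0.33 on the log2 scale, and scaling to them lowers every log2 fold change by that amount, so that 404 probe sets are called higher and 3169 lower in place of 1172 and 1437. All 16 myotube markers listed, among them skeletal actin (Acta1) and embryonic myosin (Myh3), were bright enough to be tested. The same held for all 7 markers of proliferating cells on the array, so passing this filter does not by itself tell the cell type.

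**Figure D1:**
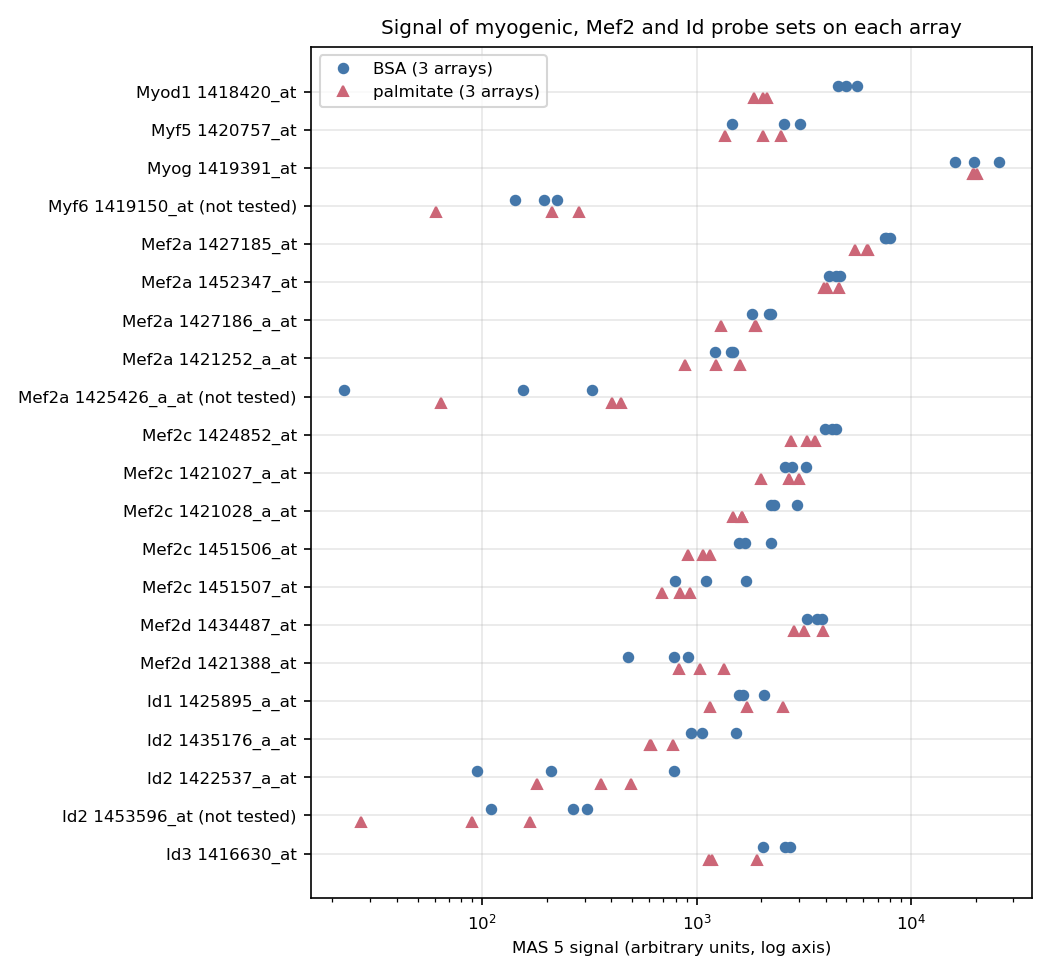
MAS 5 signal (arbitrary units, log axis) of each of the 21 probe sets on the 3 BSA arrays (circles) and the 3 palmitate arrays (triangles). For Myod1 the palmitate arrays lie between 1853 and 2123, all below the BSA arrays, while for Myog the palmitate arrays fall inside the BSA range.

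Myod1, the factor that can turn fibroblasts into muscle, gave signals of 5575.4, 4973.5 and 4579.4 on the 3 BSA arrays. The palmitate arrays gave 1852.7, 2122.7 and 2041.2. The highest palmitate value was thus less than the lowest BSA value by a wide margin, and the spread within each group was small. Myod1 was at 5043 ± 501.6 with BSA and 2006 ± 138.5 with palmitate (SD, n = 3), a log2 fold change of -1.33 ± 0.16 (SE, limma adjusted p = 0.000139). Its call held in each of 15 other settings, among them the removal of each array, with a limma adjusted p of at most 0.00329. Like Myog, Myf5, Myf6, Id1 and Id3, Myod1 was read by 1 probe set, so averaging probe sets left its values unchanged. C2C12 cultures are known to keep some unfused cells, and in bulk RNA fewer cells of a type and less RNA per cell cannot be told apart.

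Myog, which drives terminal differentiation, gave 25799.6, 19606.4 and 16097.9 with BSA and 19464.8, 20415.6 and 19677.7 with palmitate. All 3 palmitate arrays fell within the BSA range, where BSA replicate 1 was the highest. The log2 fold change was -0.02 ± 0.16 (adjusted p = 0.952), with a 95% interval of -0.37 to 0.33. A fall as large as that of Myod1 lies outside this interval. The value was 0.0073 after median scaling and -0.35 after scaling to the hybridisation controls (adjusted p = 0.163).

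The log2 ratio of Myod1 to Myog within an array is untouched by any scaling that multiplies a whole array. It was -2.21, -1.98 and -1.81 on the BSA arrays and -3.39, -3.27 and -3.27 on the palmitate arrays. The ratio was lower on every palmitate array than on any BSA array, with a difference of -1.31. This and the other ratios below set a called probe set against an uncalled one of its family. The pairs were thus chosen by the outcome, and their differences are a description with no test.

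Myf5, the other early factor, did not separate the groups. It gave 1465.4, 2546.9 and 3041.1 with BSA and 2481.5, 1360.8 and 2045 with palmitate. The log2 fold change was -0.24 ± 0.28 (adjusted p = 0.603), and leaving out palmitate replicate 2, the lowest array, moved it to 0.0034. The log2 ratio of Myod1 to Myf5 was 1.16 ± 0.69 on the BSA arrays and 0.072 ± 0.54 on the palmitate arrays (SD, n = 3 each). The groups overlapped. Myf6, the factor of mature fibres, was dim, at 61.2 to 284.1 over the 6 arrays. Its groups overlapped, and it was below the signal of 267.1 required for testing.

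**Figure D2:**
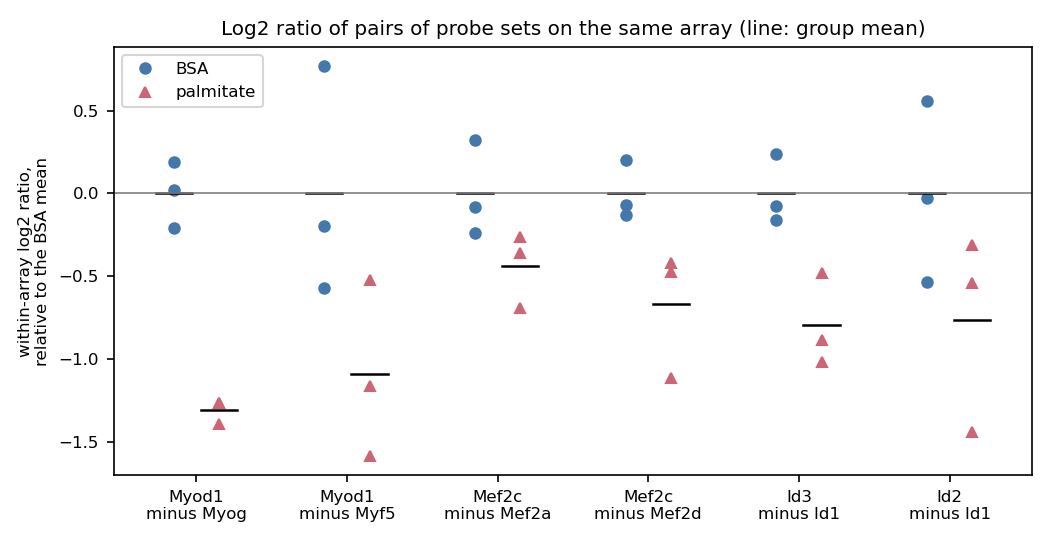
Log2 ratio of 2 probe sets on the same array, minus its BSA mean, for 6 pairs chosen by their calls (circles BSA, triangles palmitate, lines group means, n = 3 arrays each). Myod1 relative to Myog is lower by 1.31 with palmitate and its groups lie far apart, whereas the groups of Myod1 to Myf5 and of Id2 to Id1 overlap.

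RefSeq promoter sequences were at hand for 7 of the 10 genes, in assembly GRCm38.p6. The Myog promoter is shown because it is the textbook meeting point of these factors, with E-boxes for the bHLH dimers and a Mef2 site. These are the 250 bases before its start, chr1:134289754-134290003 on the plus strand, with E-boxes (CANNTG) and the Mef2 core (CTANNNNTA, searched on both strands) in capitals.

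Myog: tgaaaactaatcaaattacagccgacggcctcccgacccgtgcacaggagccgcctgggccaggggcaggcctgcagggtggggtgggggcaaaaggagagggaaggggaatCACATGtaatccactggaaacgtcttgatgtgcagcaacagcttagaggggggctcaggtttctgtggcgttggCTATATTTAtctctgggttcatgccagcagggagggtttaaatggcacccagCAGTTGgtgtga

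The E-boxes begin 138 and 12 bases before the start and the Mef2 core 64 bases before it. An E-box is no mark of a muscle gene by itself, since 66.2% of 32851 promoter windows of this length held at least 1, and 19.0% held the Mef2 core. The Mef2 pattern allows any base at each N, so it is looser than an AT-rich site. Myog kept its signal on arrays where Myod1 and part of the Mef2c probe sets were lower. Whether any factor occupied these letters was not measured.

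Mef2c, a Mef2 factor abundant in muscle, was read by 5 probe sets, all with a negative log2 fold change. Its brightest called probe set (1421028_a_at) gave 2937.8, 2290.8 and 2228.5 with BSA and 1483.8, 1627.4 and 1626.6 with palmitate, a log2 fold change of -0.64 ± 0.18 (adjusted p = 0.0243). The other called probe set (1451506_at) gave 2234.7, 1581 and 1678.4 with BSA and 1154.4, 1075.6 and 909.6 with palmitate, a log2 fold change of -0.80 ± 0.20 (adjusted p = 0.0174). In both the palmitate arrays were closely grouped below all BSA arrays. The calls were nevertheless thin. The first was lost without BSA replicate 1, BSA replicate 2, palmitate replicate 1 or palmitate replicate 3 (adjusted p up to 0.0772), and the second without BSA replicate 1 or palmitate replicate 3 (up to 0.0664).

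The other 3 Mef2c probe sets were not called, at -0.41 ± 0.16 (adjusted p = 0.0876), -0.49 ± 0.28 (adjusted p = 0.246) and -0.18 ± 0.19 (adjusted p = 0.547). The first of these (1424852_at), the brightest for the gene, had groups that did not overlap and was called after hybridisation control scaling (-0.75, adjusted p = 0.00912). The last (1421027_a_at) had overlapping groups, with 2592.4, 2786.2 and 3252.8 against 3001.9, 1991.3 and 2686. The log2 ratios of the called probe sets to it differed by -0.46 and -0.61 between groups, and the groups of both ratios overlapped. Averaged over its 5 probe sets, the gene was at -0.51 (adjusted p = 0.0480). RefSeq listed 3 starts for Mef2c, and which transcript each probe set reads was not examined.

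The first Mef2c start, shown because it alone among the member promoters other than that of Myog held 2 E-boxes, is preceded by these bases at chr13:83503784-83504033 on the plus strand, with E-boxes in capitals.

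Mef2c: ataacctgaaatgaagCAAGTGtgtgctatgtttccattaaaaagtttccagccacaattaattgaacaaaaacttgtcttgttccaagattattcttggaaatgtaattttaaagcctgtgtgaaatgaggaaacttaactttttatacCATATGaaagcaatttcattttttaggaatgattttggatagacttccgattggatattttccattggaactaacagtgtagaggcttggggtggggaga

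Mef2a and Mef2d gave no call. Of 5 Mef2a probe sets 4 were tested, with log2 fold changes from -0.36 to -0.08. The brightest (1427185_at) was at 7615.8, 7949.1 and 7544 with BSA and 6289.8, 5482.7 and 6258.5 with palmitate, so the groups did not overlap, but the change of -0.36 ± 0.13 missed the threshold (adjusted p = 0.0829). It passed after hybridisation control scaling (-0.69, adjusted p = 0.00779). The untested Mef2a probe set was dim and scattered, from 22.7 to 446.3 over the 6 arrays. The pair of probe sets for Mef2d had opposite signs, -0.13 ± 0.17 (adjusted p = 0.645) for the brighter and 0.58 ± 0.29 (adjusted p = 0.183) for the dimmer, and both overlapped between groups.

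The ratio of the more strongly lowered Mef2c probe set to the brightest probe set of each other Mef2 gene was also taken on each array. The log2 ratio to Mef2a (1427185_at) was -2.09 ± 0.29 on the BSA arrays and -2.53 ± 0.23 on the palmitate arrays (SD, n = 3 each), with the groups only just apart. The log2 ratio to Mef2d (1434487_at) was -0.99 ± 0.17 on the BSA arrays and -1.66 ± 0.39 on the palmitate arrays. In both the palmitate arrays were all below the BSA arrays. For the other called Mef2c probe set the log2 ratio to the same Mef2a probe set differed by -0.28, and its groups overlapped. Its log2 ratio to the same Mef2d probe set differed by -0.52, with the groups apart.

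**Figure D3:**
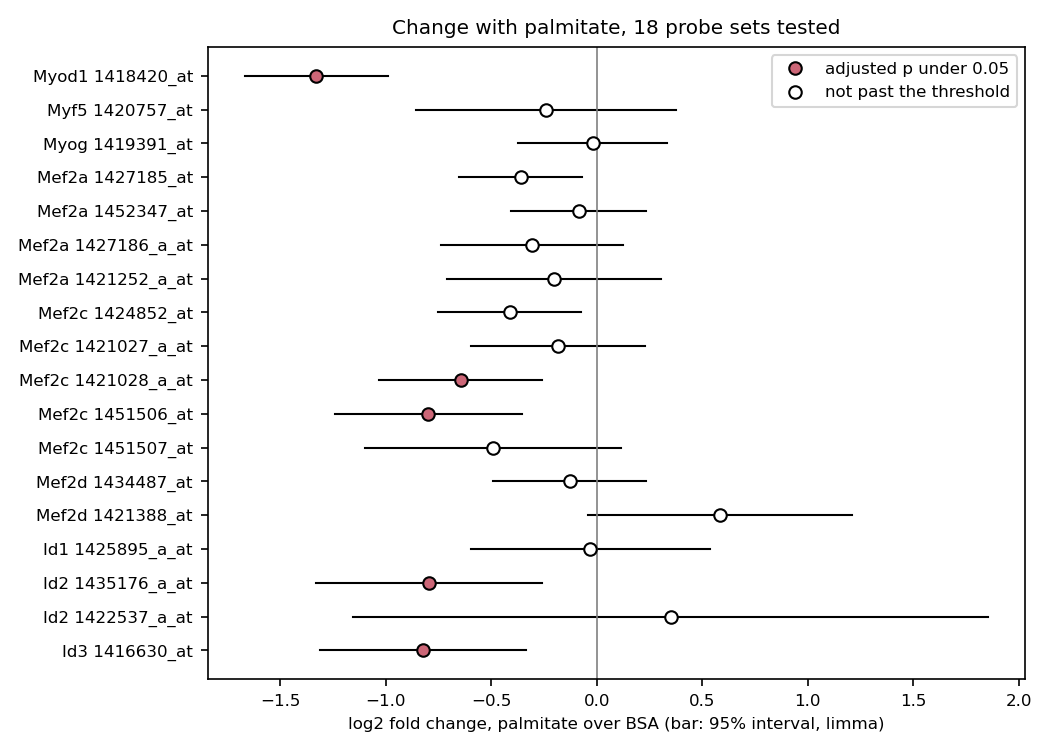
Log2 fold change, palmitate over BSA, with its 95% interval from limma for the 18 probe sets tested (n = 3 arrays per group), filled where the adjusted p was under 0.05. The interval of Myod1, -1.67 to -0.99, lies apart from that of Myog, -0.37 to 0.33, and the 5 filled points are all below 0.

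Of the Id genes, Id3 fell. It gave 2726.4, 2046.1 and 2585.2 with BSA and 1185, 1910.4 and 1148.1 with palmitate, a log2 fold change of -0.82 ± 0.22 (adjusted p = 0.0234). All palmitate arrays were below the BSA arrays, although palmitate replicate 2 came near the lowest of them. This replicate also had the lowest 3′ to 5′ Gapdh ratio, a measure of RNA integrity in which high values mark degraded RNA. On the log2 scale the ratio was -0.20, against 0.19 and 0.22 on the other palmitate arrays and 0.21 to 0.35 with BSA. Without palmitate replicate 2 Id3 was at -1.06. Its call was lost without BSA replicate 1, BSA replicate 3, palmitate replicate 1 or palmitate replicate 3 (adjusted p up to 0.0861).

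Id2 was read by 3 probe sets that did not behave alike. The brightest (1435176_a_at) gave 937, 1059.2 and 1526.6 with BSA and 779.3, 613 and 608.6 with palmitate, a log2 fold change of -0.79 ± 0.25 (adjusted p = 0.0408). A dimmer one (1422537_a_at) scattered from 94.1 to 782.2 on the BSA arrays alone and was at 0.35 ± 0.69 (adjusted p = 0.769), and the dimmest, at 27.3 to 307.9, was not tested. The Id2 call was the least stable of the 5. It was lost under 9 of 15 other settings, among them each of the removals of BSA replicate 2, BSA replicate 3, palmitate replicate 2 and palmitate replicate 3 (adjusted p up to 0.172), and the average over the gene's probe sets gave -0.64 (adjusted p = 0.268).

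Id1, the Id gene best known for its response to BMP, did not separate the groups. It gave 2064.8, 1641.3 and 1578.1 with BSA and 1727.1, 2530.1 and 1150.3 with palmitate, so that palmitate held both the highest and the lowest array. The log2 fold change was -0.03 ± 0.26 (adjusted p = 0.954), 0.017 after quantile normalization, and -0.60 to 0.54 in its 95% interval. The log2 ratio of Id3 to Id1 was 0.40, 0.32 and 0.71 with BSA and -0.54, -0.41 and -0.0028 with palmitate, lower on every palmitate array.

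The Id2 promoter, shown because it held the only CAGCTG among these windows, the E-box preferred by MyoD, lies on the minus strand at chr12:25096093-25096342. The Id3 window held neither motif.

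Id2: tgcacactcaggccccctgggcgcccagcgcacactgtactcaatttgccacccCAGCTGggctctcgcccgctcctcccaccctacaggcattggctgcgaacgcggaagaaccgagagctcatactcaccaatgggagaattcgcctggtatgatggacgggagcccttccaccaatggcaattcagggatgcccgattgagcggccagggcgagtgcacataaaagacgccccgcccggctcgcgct

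In all, 4 of 9 member windows held an E-box and 3 matched the Mef2 core pattern, against the shares of 66.2% and 19.0% given above. Between CTA and TA the Myog match (CTATATTTA) had only A and T. The matches in Myf5 (CTAGGTTTA) and Mef2c (CTAACGATA) did not, so they are not AT-rich throughout. A match describes letters and not a bound site.

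Of 7 listed E proteins and other partners, 3 were bright enough to be tested, all of them E proteins, which pair with the bHLH factors and with the Ids. Their median log2 fold change was -0.44, and each was represented by its brightest probe set. Tcf4 (E2-2) fell, from 3725.4, 3292.7 and 3779.4 with BSA to 1269, 1177.7 and 1290.2 with palmitate, a log2 fold change of -1.53 ± 0.16 (adjusted p = 7.0e-05). This was a larger log2 fold change than that of any member. Tcf3 (E2A) was at -0.44 ± 0.24 (adjusted p = 0.228) and Tcf12 (HEB) at -0.24 ± 0.19 (adjusted p = 0.412), and the groups of both overlapped. In the lists that follow, each count can be read against the 19.2% of all probe sets that were called. Tcf3 was called after hybridisation control scaling (adjusted p = 0.0307).

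Among 12 tested genes for repressors of myogenic bHLH activity, 1 rose and 0 fell, with a median of 0.0090. The 1 was Bhlhe40, a bHLH repressor, at 5024.3, 6115.4 and 5324.7 with BSA and 9884, 8693.6 and 10156.9 with palmitate (log2 fold change 0.81 ± 0.14, adjusted p = 0.00215). The groups were well apart, but the call was lost after hybridisation control scaling (0.47, adjusted p = 0.0552), where the list had 0 higher, 3 lower and a median of -0.32. Of 18 coregulators and kinases of MyoD and Mef2, with a median of -0.016, Kat2b (PCAF), an acetyltransferase that acts on MyoD, fell by 1.23 ± 0.22 on the log2 scale (adjusted p = 0.00209). Smarcd3 (BAF60c), which brings chromatin remodelling to MyoD, fell by 0.70 ± 0.21 (adjusted p = 0.0323), and that call was lost without BSA replicate 1, BSA replicate 3, palmitate replicate 2 or palmitate replicate 3 (adjusted p up to 0.0984). Nfatc2, which cooperates with Mef2, was called higher, at 1.30 ± 0.39 (adjusted p = 0.0347). It passed the filter through its palmitate arrays, since its mean signal was 198.7 with BSA and 492 with palmitate. This call was lost under 8 of 13 settings, including hybridisation control scaling (0.96, adjusted p = 0.126) and the removal of any array but BSA replicate 1 (adjusted p up to 0.139). After hybridisation control scaling the list had 0 higher, 5 lower and a median of -0.35.

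Genes that MyoD, myogenin and Mef2 are known to activate stayed mostly uncalled. Of 32 tested, 0 rose and 1 fell, at a median of -0.22, and 23 of the 32 had a negative log2 fold change. The 1 was Pgam2, the muscle phosphoglycerate mutase, at -2.13 ± 0.42 (adjusted p = 0.00408). It passed the filter through its BSA arrays, with a mean signal of 914.5 with BSA and 224.9 with palmitate, so the size of its fall is uncertain. This count depends on scaling, with 13 of the 32 called lower after hybridisation control scaling and 3 after quantile normalization. Without BSA replicate 1 the median was 0.023, with 1 gene called in each direction.

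Of 14 tested BMP and SMAD genes upstream of Id transcription, with a median of -0.28, 1 rose and 1 fell. These counts were 0 and 6 after hybridisation control scaling (median -0.61) and 1 and 3 without palmitate replicate 2. The ligand gene Bmp4 gave 1469.1, 1756.5 and 1387.8 with BSA and 343.3, 368.9 and 195.4 with palmitate, a fall of 2.39 ± 0.29 on the log2 scale (adjusted p = 0.000173), with the groups far apart. The inhibitory SMAD gene Smad7 rose by 1.05 ± 0.26 (adjusted p = 0.0153), a call lost after hybridisation control scaling (adjusted p = 0.0833) and without BSA replicate 2, BSA replicate 3, palmitate replicate 1 or palmitate replicate 2 (adjusted p up to 0.0656).

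**Figure D4:**
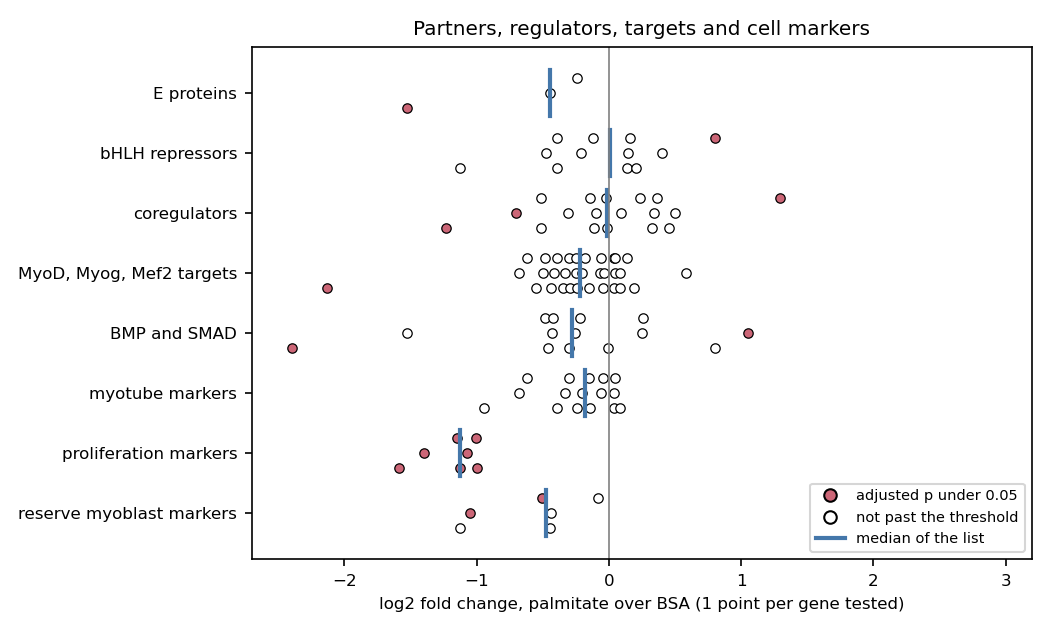
Log2 fold change, palmitate over BSA, of each tested gene (1 point, by its brightest probe set, n = 3 arrays per group) in 8 lists of partners, regulators, targets and cell markers, filled where the adjusted p was under 0.05, with the list median as a bar. Targets and myotube markers, lists that share most of the myotube markers, have medians of -0.22 and -0.18, with 1 filled point among the targets. All 7 proliferation markers lie below 0 and are filled.

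Markers of proliferating cells fell for 7 of 7 genes tested, with Mki67 at -1.59 ± 0.17 (adjusted p = 9.3e-05). Their summed signal was 27330 to 32310 with BSA and 12800 to 13630 with palmitate. Of 6 tested markers of undifferentiated or reserve myoblasts, Notch3 fell by 1.05 ± 0.17 (adjusted p = 0.00131) and Vcam1 by 0.51 ± 0.15 (adjusted p = 0.0347), a call lost without BSA replicate 2, BSA replicate 3, palmitate replicate 2 or palmitate replicate 3 (adjusted p up to 0.133). After hybridisation control scaling 4 of the 6 were called lower. Pax7 was under the filter. The summed signal over all 7 on the array was 19080 to 21450 with BSA and 13810 to 15400 with palmitate. Some of these 7 are also in the lists of targets and of bHLH repressors above, by the same probe sets, so those lists are not separate from this one.

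Of 16 myotube markers 0 were called, and their summed signal overlapped, at 210200 to 320000 with BSA and 224900 to 247400 with palmitate, though 8 were called lower after hybridisation control scaling. Their median log2 fold change was -0.18, and 0.012 without BSA replicate 1. Most of these markers are also in the list of targets above, by the same probe sets, so these lists are not separate results. The fibroblast markers Col3a1 and Pdgfra, the 2 tested of 6, fell by 1.89 ± 0.15 and 1.67 ± 0.32 (adjusted p = 8.9e-06 and 0.00377). Pdgfra passed the filter through its BSA arrays, with a mean signal of 264.4 with palmitate. The list summed to 51200 to 61790 with BSA and 12200 to 17000 with palmitate. Nearly all of this sum was Col3a1, with a mean signal of 53210 with BSA and 14420 with palmitate. Smooth muscle Acta2 and Tagln, the 2 tested of 5, fell as well, by 0.40 ± 0.12 and 0.83 ± 0.17 (adjusted p = 0.0382 and 0.00623), the list summing to 53810 to 65400 and 41270 to 45400. Most of that sum was Acta2, with a mean signal of 49070 with BSA and 37000 with palmitate. All other listed fibroblast and smooth muscle markers were under the filter. Whether Col3a1, Pdgfra, Acta2 and Tagln were read from cells of those types or from the myogenic cells was not tested. Without any array other than BSA replicate 3, only 1 of Acta2 and Tagln was called. Osteoblast, adipocyte and macrophage lists had 0 calls among 2, 1 and 3 genes tested, and the adipocyte gene, Cebpa, was called lower after hybridisation control scaling and without palmitate replicate 2. The macrophage receptor gene Csf1r was at 1.26 ± 0.47 (adjusted p = 0.0805). The other macrophage genes tested had the opposite sign, Adgre1 at -0.53 ± 0.32 and Cd14 at -0.29 ± 0.24 (adjusted p = 0.277 and 0.430). Markers under the filter were not tested, and since detection calls were not used, whether they were detected is not known. The called proliferation, reserve myoblast, fibroblast and smooth muscle markers moved in the same direction as Myod1, Mef2c, Id2 and Id3, and their part in those falls was not tested.

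The genes whose signals followed a called member most closely over the 6 arrays were found by Pearson correlation of log2 signals. For Myod1 they were Csrp2, a LIM domain protein (r = 0.998), and the collagen gene Col6a2 (r = 0.998), which differed by -1.77 ± 0.16 and -1.63 ± 0.17 on the log2 scale. For Id3 they were Fibp (r = 0.994) and Pml (r = 0.992), and for Id2 Eps15l1 (r = 0.999) and Tpbg (r = 0.997). Dap (r = 0.998) and Maged1 (r = 0.997) followed the brighter called Mef2c probe set, and Ndufb2 and Dbnl (r = 0.995 for both) the other. These were the highest of many values, taken over 6 arrays in 2 groups, and have no test. At the looser cut of 0.95, 415 of 12521 named probe sets compared exceeded it with Myod1 and 85 with Id3.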

How the data were processed

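Per the series' design text and the submitters' processing notes, the authors quantified Affymetrix mouse 430A 2.0 arrays with MAS 5, and the deposited values are linear signal intensities, 1 per probe set. The sources used here do not give its settings. Means trimmed by 2% were nearly equal across arrays (1500.5 to 1500.56). Detection calls and batches were not used here. Of 22690 probe sets, 64 were controls, and 20380 of the others had 1 gene symbol in the platform annotation.

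Signals were log2 transformed with no offset, and those whose mean exceeded the 40th percentile (a signal of 267.1) were fitted in limma 3.58.1 with R 4.3.3. The test was two-sided with an intensity trend, and p-values were adjusted by Benjamini-Hochberg over the 13575 probe sets. The fit was tested on simulated data. Genes in lists were represented by their brightest probe set. The members and lists were chosen with earlier results of these data known. Named genes were all members, each E protein measured, called list genes and the 2 closest correlates of each called member. Acta1, Myh3, Pax7, Cebpa, Csf1r, Adgre1 and Cd14 were named after their values were seen. Ratios were described without a test. Alternatives were 3 scalings, an offset of 50, no filter or a 60th percentile filter, no trend, averaged probe sets, a replicate block and leaving out each array.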

Additional observations from a re-analysis of the deposited data

How the results depend on the processing

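Of the called probe sets, Myod1 kept its call in 15 of 15 alternatives, Mef2c in 12 of 14 (1451506_at) and 9 of 14 (1421028_a_at), Id3 in 10 of 15 and Id2 in 6 of 15. The number of called member probe sets, 5, became 3 without the intensity trend and 3 with the replicate block, and 1 to 4 on leaving out 1 array, with Myod1 alone left without palmitate replicate 3. All probe sets called, 2609, became 1973 with the replicate block and 1575 (without BSA replicate 2) to 2339 on leaving out 1 array. Same-numbered replicates deviated with correlations of -0.23, -0.13 and 0.0091. With 3 arrays per group these values cannot tell whether same-numbered samples shared a culture or batch. Scaling to 9 hybridisation control probe sets shifted the array-wide median log2 fold change to -0.34 and the calls from 1172 higher and 1437 lower to 404 higher and 3169 lower, and gave 7 member calls.

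Signs turned only in uncalled probe sets: Myog after median scaling (0.0073) and Id1 after quantile normalization (0.017), and, with probe sets averaged, Mef2a (0.031) and Mef2d (0.23). On leaving out 1 array, Myog ranged from -0.18 to 0.16, Id1 from -0.31 to 0.26, Myf5 from -0.55 to 0.0034, Mef2a (1421252_a_at) from -0.41 to 0.020 and Id2 (1422537_a_at) from -0.35 to 0.76. The cause was not tested. Dim probe sets limit Myf6, Nfatc2 and the Id2 and Mef2a probe sets under the filter.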
